A study of Mus musculus with 25 samples.

Results

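Peroxisomal genes were followed in 3T3-L1 adipocytes, a mouse cell line grown as preadipocytes and differentiated in culture into fat cells. The 29 genes were chosen by name, as the probe sets whose platform symbol is a gene of peroxisome assembly or of peroxisomal lipid metabolism. They comprise 12 biogenesis genes (the Pex genes), 2 transporters and 15 enzymes, out of 18194 genes with a probe set of 1 symbol. All 29 were among the 14428 genes that passed the filter on dim signals, and 55 probe sets carried their symbols. No measured value was used to choose them, although results of these data were known when they were chosen.

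The cells received LA, the control, or CLA, the treatment, for 4, 8, 12 or 24 h. Biotin-labelled cRNA made from total RNA was hybridised to 1 single-colour Affymetrix array per biological replicate. The labels give only these abbreviations, which commonly denote linoleic acid and its conjugated form in this field, and they state neither dose nor isomer. The 4 h groups had 3 LA and 2 CLA arrays, the 8 h and 24 h groups 3 of each, and the 12 h groups 4 of each. Every group is the same cultured line, so the replicates are cultures and not animals, and the control cells also received a fatty acid if LA is read as above.

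The peroxisome is an organelle bounded by 1 membrane that shortens very long, branched and dicarboxylic fatty acids, makes the first intermediates of ether lipids, and breaks down the hydrogen peroxide its oxidases release. Its proteins are made in the cytosol: peroxins insert membrane proteins, carry matrix enzymes across the membrane and recycle the carriers, and Pex11 proteins elongate the organelle before it divides. Peroxisomes multiply as preadipocytes become fat cells, and ether lipid synthesis begins in them.

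Promoter windows are shown for 3 genes namely the 2 members with the smallest adjusted p at 24 h and the peroxin of organelle division. They come from RefSeq on GRCm38.p6 and run from 250 bases before to 50 bases into the gene. Capitals mark a nuclear receptor half-site (AGGTCA) in Scp2, which encodes the thiolase that completes oxidation of branched chains, at position -109 from the start. In Gnpat, which encodes the first acyltransferase of ether lipid synthesis, and in Pex11a, capitals mark an ETS core (CCGGAAG, here on the opposite strand) at -8 and -16.
Scp2, chr4:108118498-108118797, minus strand: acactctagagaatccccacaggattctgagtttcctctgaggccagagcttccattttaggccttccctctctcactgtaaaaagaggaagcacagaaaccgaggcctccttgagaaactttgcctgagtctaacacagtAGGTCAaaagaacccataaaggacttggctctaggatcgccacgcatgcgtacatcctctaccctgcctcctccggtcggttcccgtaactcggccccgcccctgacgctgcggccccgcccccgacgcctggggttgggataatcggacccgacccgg
Gnpat, chr8:124862783-124863082, plus strand: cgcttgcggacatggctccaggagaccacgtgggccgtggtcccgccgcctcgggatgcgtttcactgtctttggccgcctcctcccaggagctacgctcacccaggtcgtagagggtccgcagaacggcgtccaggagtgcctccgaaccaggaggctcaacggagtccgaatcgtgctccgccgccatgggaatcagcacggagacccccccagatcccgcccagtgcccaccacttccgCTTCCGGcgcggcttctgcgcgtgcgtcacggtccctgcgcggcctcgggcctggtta
Pex11a, chr7:79743082-79743381, minus strand: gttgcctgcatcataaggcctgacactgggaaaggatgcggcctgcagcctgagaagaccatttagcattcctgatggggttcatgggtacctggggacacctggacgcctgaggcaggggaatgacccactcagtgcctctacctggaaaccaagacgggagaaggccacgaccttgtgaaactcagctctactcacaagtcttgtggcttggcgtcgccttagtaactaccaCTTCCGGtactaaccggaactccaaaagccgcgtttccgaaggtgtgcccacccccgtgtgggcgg

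In a fit that allows for 5 sets of arrays, most peroxisomal transcripts lay lower under CLA at 8, 12 and 24 h. Below 0 were 26, 28 and 27 of the 29 genes, beside 52.7%, 49.9% and 48.9% of all genes. The effect of CLA was not shown to differ between times. At 8 h 0 of the 29 passed, beside 1.81% of all genes in either direction. In the same fit 6 genes fell at 12 h, beside 2.4% of all genes, and 9 fell at 24 h, beside 3.72%. At either time 0 members were higher, beside 2.29% and 0.88% of all genes. Each gene that passed at 12 h also passed at 24 h. Gnpat and Scp2 had the smallest adjusted p at 24 h, with signals 2.54-fold and 2.19-fold lower. The genes that fell span assembly of the membrane (Pex3, Pex16, Pex19), organelle division (Pex11a), fatty acid oxidation (Ehhadh, Scp2, Phyh, Hacl1) and ether lipid synthesis (Gnpat). The Ehhadh signal was near the floor, and with a larger offset, added before the log2, Ehhadh did not pass. All calls at 12 and 24 h rest on the allowance for array sets. Without it, and with the replicate number as a block in its place, 0 members passed at either time, as set out below. In bulk RNA fewer cells of a type and less RNA per cell cannot be told apart.

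The arrays fell into 5 sets that the labels do not name, found by clustering all kept genes without use of treatment, time or replicate number. The sets were drawn from the same values that were then tested. A term for them can therefore make the errors too small and the adjusted p too low. At 12 and 24 h every LA array shared its set with the CLA array of the same replicate number. The replicate 1 arrays at 4 h lay in different sets, and so did the replicate 3 arrays at 8 h. Levels in single arrays at 4 and 8 h, and whether the groups overlap there, therefore mix treatment with array set. Mean intensity per array ran from 72.6 to 149.2, and the ratio of actin's 3' to 5' control probe sets, which rises as RNA degrades, reached 8.11 in an LA array at 4 h and 5.67 in an LA array at 12 h against at most 3.32 elsewhere. Differences below are CLA minus LA on the log2(intensity + offset) scale, with an offset of 0.984. They carry the standard error of limma's moderated fit, whose p-values were adjusted by the Benjamini-Hochberg method over all genes tested, with adjusted p under 0.05 as the threshold. Levels in single arrays are quantile-normalised intensities, and they do not compare one gene with another.

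More members passed the threshold at the later times, and so did more of all genes. At 4 h 0 members passed in limma's fit, where 0.0208% of all genes passed in either direction, and 1 member (Pex10, 1.02 on the log2 scale) lay higher at an unadjusted p under 0.05, against 5.25% of all genes. At 8 h 0 passed (background 1.81% in either direction), while 9 lay lower at an unadjusted p under 0.05, against 8.04% of all genes. At unadjusted p under 0.05 there were 11 lower members at 12 h and 17 at 24 h, beside 9.4% and 10.4% of all genes.

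**Figure D1:**
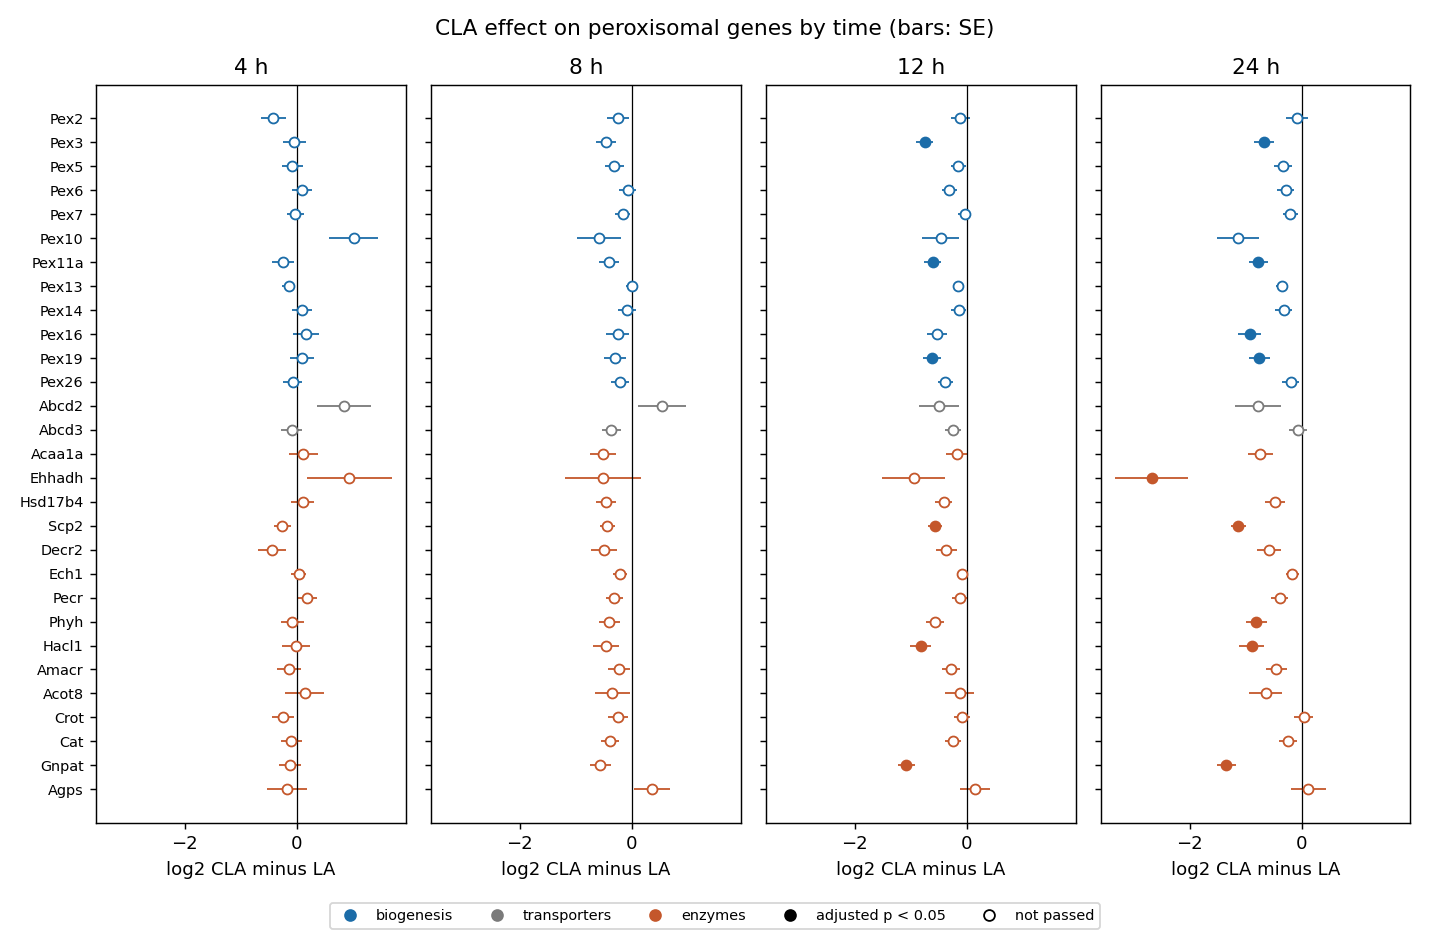
CLA minus LA difference (log2 of intensity plus offset, x axis) of each of the 29 genes at 4, 8, 12 and 24 h, with bars for the SE, colour for the group of genes and filled points for adjusted p under 0.05. The 9 filled points at 24 h lie between -2.68 and -0.67. The lowest, Ehhadh, had a signal near the floor.

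Without the array-set term 0 members passed at 12 h (background 0.0277%) and 0 at 24 h (background 0%) in limma's fit. In that fit 2 members were lower at an unadjusted p under 0.05 at 12 h and 5 at 24 h, against 2.07% and 2.68% of all genes. With the replicate number as a block shared by all times, 0 members passed at 12 h (background 0.208%) and 0 at 24 h (background 0.18%). Under this block the smallest adjusted p was 0.214 at 12 h, for Gnpat, and 0.144 at 24 h, for Scp2, and 5 and 8 members were lower at an unadjusted p under 0.05, against 4.32% and 5.56% of all genes. A block within each time, which the arrays' pairing at 12 and 24 h calls for, was run only after seeing the data. It also gave 0 members at both times. The differences at these times are identical with the array-set term, without it and with the shared block. Only their errors differ. With the array-set term, leaving out 1 array gave between 1 and 7 members at 12 h and between 2 and 7 at 24 h, with the fewest at both times when LA or CLA replicate 2 was left out.

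The direction was shared by most members whether or not they passed. The difference was below 0 for 17 of 29 members at 4 h, 26 at 8 h, 28 at 12 h and 27 at 24 h, beside 48.8%, 52.7%, 49.9% and 48.9% of all genes tested. The median over members was -0.04, -0.31, -0.31 and -0.48 on the log2 scale at the 4 times, and the median over all genes was 0.01, -0.03, 0.00 and 0.01. At 24 h Crot (0.04 ± 0.17) and Agps (0.12 ± 0.31) were the members above 0. Members whose CLA arrays all lay below every LA array numbered 2 at 4 h, 5 at 8 h, 0 at 12 h and 11 at 24 h, where 5.38%, 7.15%, 1.16% and 7.05% of all genes did so. The counts at 4 and 8 h may also carry differences between array sets.

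Both biogenesis genes and enzymes held members that fell. Of the 12 Pex genes 3 fell at 12 h and 4 at 24 h, where 2.4% and 3.72% of all genes fell, with medians of -0.03, -0.25, -0.34 and -0.34 on the log2 scale from 4 to 24 h. Of the 15 enzymes 3 fell at 12 h and 5 at 24 h, with medians of -0.08, -0.40, -0.28 and -0.58. Neither of the 2 transporters passed at any time, and their medians were 0.38, 0.09, -0.37 and -0.42. The difference between the groups of genes was not tested.

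**Figure D2:**
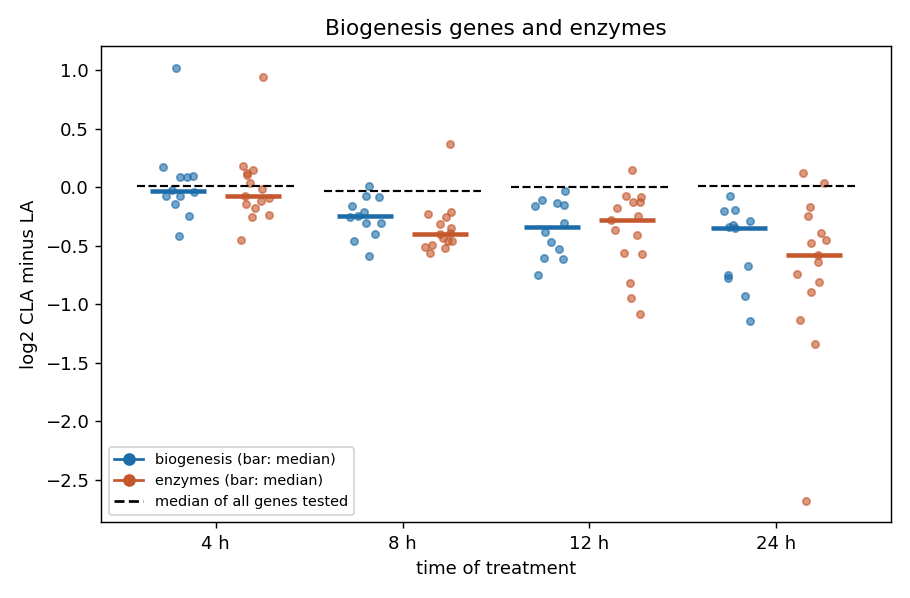
Differences (CLA minus LA, log2 of intensity plus offset) by time for each biogenesis gene and each enzyme, with bars for the median of each group and dashed lines for the median of all genes tested. At 24 h the bars stand at -0.34 for the 12 Pex genes and -0.58 for the 15 enzymes, and the dashed line at 0.01.

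Among the peroxins, those that build the membrane fell. Pex3 is the membrane anchor on which Pex19, the carrier of newly made membrane proteins, docks. At 24 h Pex3 read 243, 288 and 181 in the LA arrays and 173, 133 and 135 in the CLA arrays, so the groups did not overlap. The difference was -0.67 ± 0.18 (SE, limma adjusted p = 0.0431). At 12 h it read 239, 323, 216 and 196 under LA and 229, 138, 121 and 105 under CLA, where the groups overlapped through the first CLA array, and the difference was -0.75 ± 0.15 (adjusted p = 0.0141).

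Pex19 had intensities of 248, 538 and 166 in the LA arrays at 24 h and 147, 270 and 116 in the CLA arrays. The groups overlapped, although each CLA array lay below the LA array of its own replicate number, and the difference was -0.75 ± 0.19 (adjusted p = 0.0335). At 12 h Pex19 read 222, 554, 206 and 617 under LA and 201, 266, 140 and 378 under CLA, with a difference of -0.61 ± 0.16 (adjusted p = 0.0438). Pex16, which with Pex3 serves membrane assembly, read 379, 581 and 354 under LA at 24 h and 229, 343 and 143 under CLA. No CLA value reached the lowest LA value, and the signal was 1.90-fold lower (-0.93 ± 0.20, adjusted p = 0.0171). At 12 h Pex16 did not pass (-0.53 ± 0.18, adjusted p = 0.105).

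Pex11a, the peroxin of organelle elongation and division whose promoter is shown above, read 490, 572 and 201 in the LA arrays and 306, 295 and 125 in the CLA arrays at 24 h. Replicate 3 was low in both groups, so the groups overlapped, and each CLA array was below its numbered LA partner. The difference was -0.77 ± 0.17 (adjusted p = 0.0183). At 12 h the LA arrays read 441, 619, 229 and 495 and the CLA arrays 329, 288, 156 and 391, which gave -0.61 ± 0.15 (adjusted p = 0.0311).

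The other 8 peroxins did not pass at any time. They include the import receptors Pex5 and Pex7, the docking proteins Pex13 and Pex14, the ubiquitin ligases of receptor recycling Pex2 and Pex10, and the recycling ATPase Pex6 with its membrane anchor Pex26. At 24 h their differences ran from -1.14 ± 0.38 for Pex10 to -0.08 ± 0.19 for Pex2. The LA arrays of Pex10 read 50.4, 42.5 and 45.8 at 24 h and its CLA arrays 14.3, 27.4 and 21.4, which did not overlap (adjusted p = 0.11). Pex13 read 808, 686 and 585 under LA and 705, 502 and 443 under CLA, with -0.35 ± 0.10 (adjusted p = 0.0676). At 24 h the confidence interval (95%) for Pex5 ran from -0.68 to 0.00 and for Pex7 from -0.47 to 0.07.

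The transporters carry acyl groups into the organelle. Abcd2 read 519, 213 and 119 in the LA arrays at 24 h and 304, 138 and 60.8 in the CLA arrays, with a wide error (-0.78 ± 0.41, adjusted p = 0.36). Abcd3 read 427, 407 and 410 under LA and 408, 375 and 410 under CLA, a difference of -0.06 ± 0.16 (adjusted p = 0.931).

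In ether lipid synthesis Gnpat fell at 12 and 24 h and Agps did not pass at any time. Gnpat encodes the acyltransferase that starts the ether lipid pathway, and Agps the synthase that swaps the acyl chain for an alkyl chain in the next step. Gnpat read 746, 905 and 472 under LA at 24 h and 323, 348 and 173 under CLA, and the groups did not overlap (-1.34 ± 0.17, adjusted p = 0.00073). At 12 h it read 686, 998, 548 and 1381 under LA and 513, 348, 203 and 715 under CLA. Each CLA array at 12 h was below its numbered LA partner, though the groups overlapped, and the difference was -1.08 ± 0.15 (adjusted p = 0.00229).

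At 8 h Gnpat read 1026, 811 and 1262 under LA and 758, 519 and 271 under CLA, which did not overlap. The difference was -0.56 ± 0.18 (adjusted p = 0.138) with the array-set term and -1.10 without it. The replicate 3 arrays, 1262 under LA and 271 under CLA, lay in different array sets. At 4 h Gnpat read 1076, 960 and 1322 under LA and 1424 and 714 under CLA (-0.12 ± 0.20, adjusted p = 0.891). Agps read 196, 112 and 159 under LA at 24 h and 190, 140 and 168 under CLA, with overlapping groups (0.12 ± 0.31, adjusted p = 0.931, 95% interval -0.55 to 0.78). The difference between the 2 genes was not tested.

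**Figure D3:**
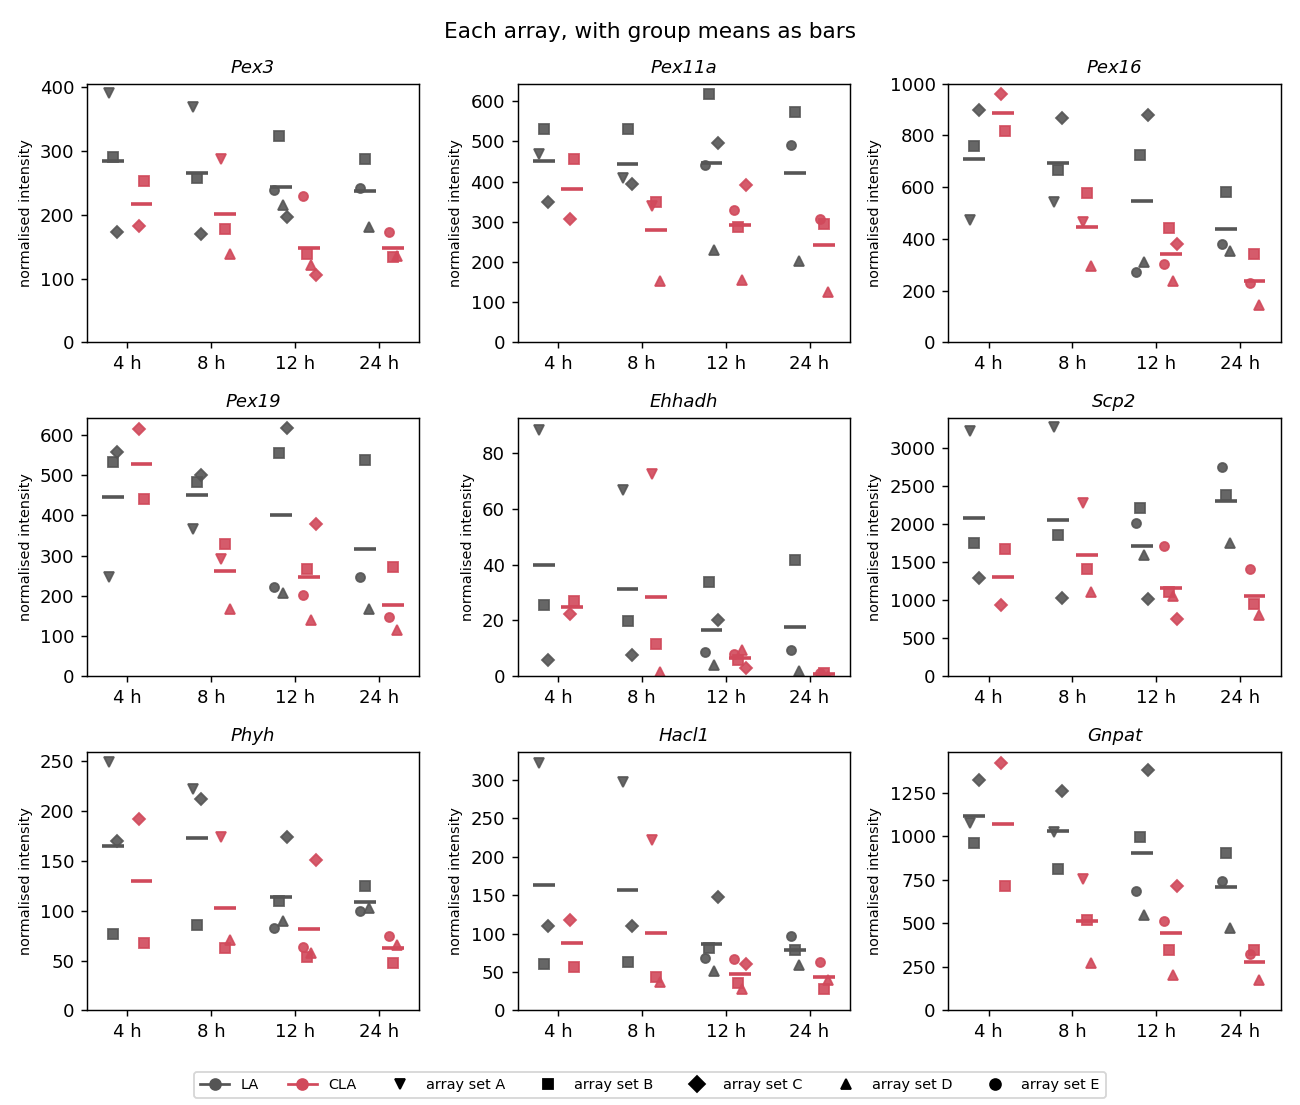
Quantile-normalised intensity (linear axis from 0) of the 9 genes that fell, in every array by time, with colour for the treatment, marker shape for the array set and bars for group means. For Gnpat the 3 CLA arrays at 24 h lie between 173 and 348, below the 3 LA arrays between 472 and 905.

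Scp2, whose thiolase product acts on branched chains, fell at both later times. It read 2752, 2377 and 1756 under LA at 24 h and 1409, 953 and 810 under CLA, without overlap (-1.13 ± 0.14, adjusted p = 0.000478). At 12 h the LA arrays read 2017, 2210, 1590 and 1017 and the CLA arrays 1704, 1103, 1058 and 754, which overlapped (-0.57 ± 0.12, adjusted p = 0.0153). The 3 other Scp2 probe sets gave -1.53, -0.76 and -0.86 on the log2 scale at 24 h. Both these and the probe set used may also count the non-oxidative sterol carrier transcript of the gene. The fall is therefore not assigned to the thiolase form.

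Alpha-oxidation removes 1 carbon from branched chains that beta-oxidation cannot start on, and both members of this pathway fell at 24 h. Phyh, the hydroxylase of the first step, read 99.9, 125 and 103 under LA at 24 h and 74.3, 47.8 and 66.2 under CLA, without overlap (-0.81 ± 0.18, adjusted p = 0.0197). At 12 h Phyh did not pass (-0.56 ± 0.16, adjusted p = 0.0558). Hacl1, the lyase of the next step, read 96.3, 78.4 and 59.7 under LA at 24 h and 63.4, 27.3 and 39.3 under CLA. The first CLA array overlapped the LA range, and the difference was -0.89 ± 0.22 (adjusted p = 0.0333). At 12 h Hacl1 read 68.0, 81.4, 50.9 and 147 under LA and 67.2, 35.1, 28.5 and 60.7 under CLA (-0.82 ± 0.19, adjusted p = 0.0269). Amacr, the racemase that prepares branched chains for beta-oxidation, gave -0.45 ± 0.18 at 24 h (adjusted p = 0.199).

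Ehhadh encodes the bifunctional enzyme of the middle steps of beta-oxidation, and its signal was near the floor. At 24 h the deposited intensities were 12.2, 39.9 and 2.69 under LA and 2.15, 1.42 and -6.1 under CLA, so no fold is given. The CLA arrays all lay below the LA arrays (-2.68 ± 0.65, adjusted p = 0.0301), but with an offset of 57.7 the difference was -0.33 (adjusted p = 0.104). The size of this difference is therefore set by the small offset.

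The remaining beta-oxidation enzymes and the reductase Pecr did not pass at any time. At 24 h Acaa1a, the thiolase of straight chains, gave -0.74 ± 0.23 (adjusted p = 0.0827), with 208, 179 and 179 under LA and 159, 82.3 and 108 under CLA. Hsd17b4, the second bifunctional enzyme, gave -0.48 ± 0.18 (adjusted p = 0.156). The auxiliary enzymes of unsaturated chains gave -0.58 ± 0.22 for Decr2 and -0.17 ± 0.12 for Ech1, and Pecr, a reductase of trans-enoyl-CoA, gave -0.39 ± 0.15.

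Export of shortened chains was served by Acot8, a thioesterase (-0.64 ± 0.30, adjusted p = 0.282), and Crot, a carnitine transferase (0.04 ± 0.17, adjusted p = 0.966). Catalase, the enzyme that breaks down hydrogen peroxide and is often used as a peroxisome marker, read 1056, 1284 and 623 under LA at 24 h and 854, 946 and 633 under CLA. The groups overlapped, and Cat gave -0.24 ± 0.16 (adjusted p = 0.51).

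**Figure D4:**
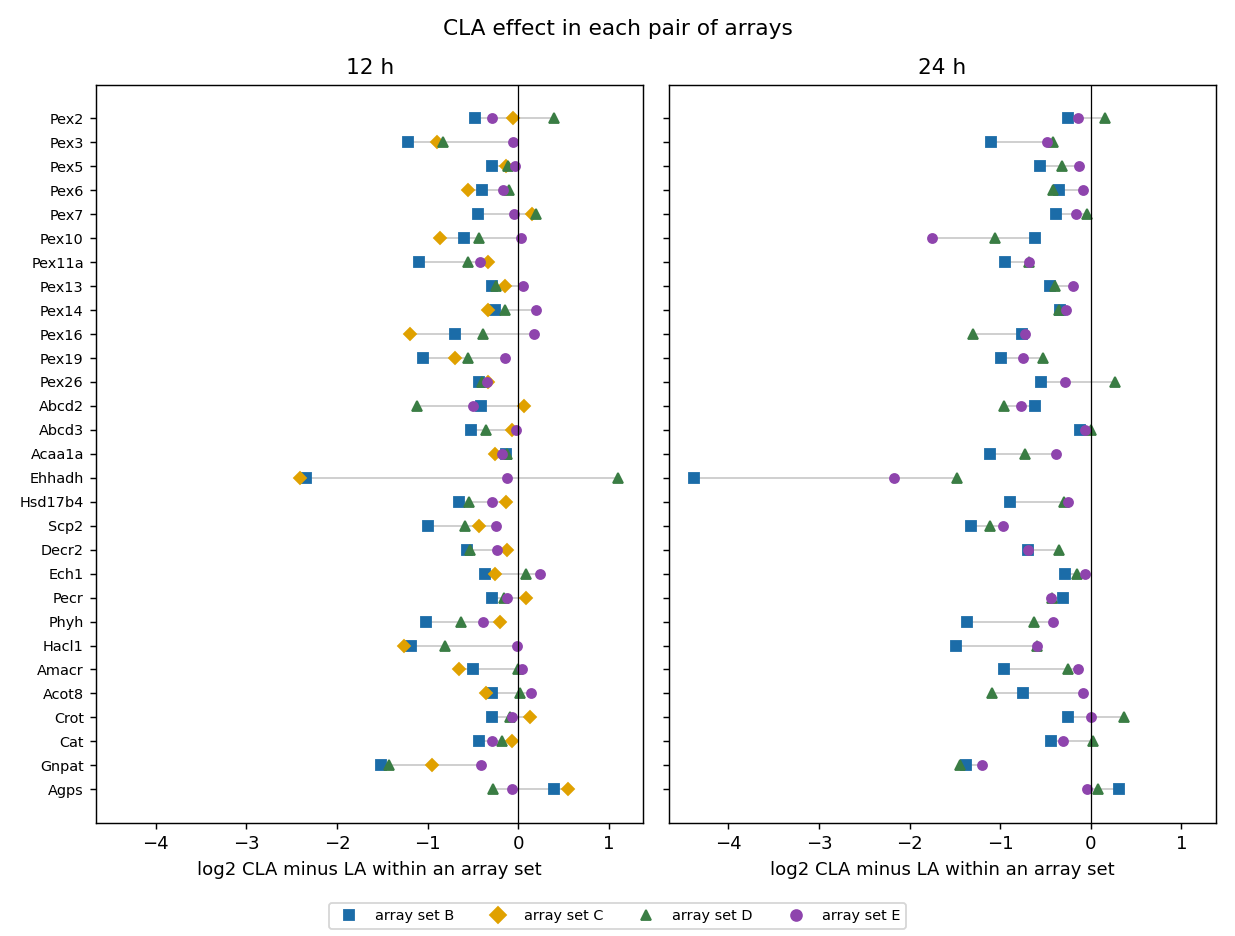
CLA minus LA difference (log2 of intensity plus offset, x axis) within each array set that holds both treatments, for all 29 genes at 12 h (4 sets) and 24 h (3 sets), with a marker shape for each set. For Gnpat the 3 sets at 24 h lie between -1.45 and -1.21.

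Within array sets, each of the 6 genes that passed at 12 h was lower in 4 of 4 sets and each of the 9 that passed at 24 h in 3 of 3. The fitted difference at these times is the mean of these same differences, so a shared sign is no separate support. Members that did not pass, such as Abcd3 and Ech1, were also lower in 3 of 3 sets at 24 h. The share over all genes was not computed. For Gnpat at 24 h the sets gave between -1.45 and -1.21 on the log2 scale. For Scp2 they gave between -1.32 and -0.97, and for Pex11a between -0.95 and -0.68. The spread between sets was wider for Hacl1, from -1.49 to -0.59, and for Ehhadh, from -4.38 to -1.47. At 12 h the sets ranged from -1.52 to -0.42 for Gnpat, from -1.22 to -0.06 for Pex3 and from -1.27 to -0.02 for Hacl1, so the last 2 hardly differed in 1 set.

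The effect of CLA was not shown to differ between times. The difference of effects at 24 h minus 12 h passed for 0 members (background 0%) in limma's fit, and for 1 at an unadjusted p under 0.05, Scp2 (-0.57, unadjusted p = 0.00705), against 4.51% of all genes. The moderated F-test over the 4 times passed for 0 members (background 0.0139%), with 7 at an unadjusted p under 0.05, against 9.27% of all genes. In LA arrays alone 0 members passed a moderated F-test of change over time (background 0%), and 4 (Pex5, Pex13, Abcd2 and Decr2) had an unadjusted p under 0.05, against 8.85% of all genes.

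Some other peroxisomal genes, from a list drawn up by function, fell as well. At 24 h 3 of 10 further genes of biogenesis and the membrane fell, 4 of 16 of lipid oxidation, 0 of 2 of ether lipid synthesis, and 3 of 10 other enzymes, with 1 higher (Xdh, 0.49 ± 0.11), where 3.72% of all genes fell. At 12 h the counts lower were 2 of 10, 2 of 16, 0 of 2 and 3 of 10, beside 2.4% of all genes. As for the members, 0 genes of these lists passed at 12 or 24 h in limma's fit without the array-set term or with the replicate block. At an unadjusted p under 0.05, the 4 lists in that order held 2, 1, 0 and 2 lower genes at 24 h without the term, and 4, 3, 0 and 2 with the block. Of all genes 2.68% were lower without the term and 5.56% with the block. The 6 with the smallest p were Acad11, an acyl-CoA dehydrogenase (-1.27 ± 0.22), Pxmp4, a membrane protein (-1.18 ± 0.20), Lonp2, the peroxisomal protease (-0.69 ± 0.15), Mlycd, malonyl-CoA decarboxylase (-1.24 ± 0.26), Gstk1, a glutathione transferase (-0.81 ± 0.17), and Nudt7, a coenzyme A diphosphatase (-1.03 ± 0.23). Mlycd and some others of these also act outside the peroxisome.

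Of 7 regulators of peroxisomal genes 1 fell at 24 h, Pparg, the nuclear receptor that drives fat cell identity (-0.88 ± 0.16, adjusted p = 0.0072). Of all genes 3.72% fell at this time. Pparg is also 1 of the adipocyte markers below. At 12 h Pparg (-0.54 ± 0.14), its partner Rxra (-0.38 ± 0.10) and the coactivator Ppargc1b (-1.25 ± 0.23) fell, beside 2.4% of all genes. At 8 h Rxra fell (-0.52 ± 0.12) and Nfe2l2, the regulator of antioxidant genes, rose (0.92 ± 0.15). Of all genes 1.81% passed at 8 h in either direction. Ppara, the receptor best known for inducing peroxisomal oxidation in liver, did not pass at 24 h (-1.71 ± 0.50, adjusted p = 0.0694). In limma's fit without the array-set term, and with the replicate block, 0 regulators passed at 8, 12 or 24 h. At an unadjusted p under 0.05, 1, 1 and 2 regulators were lower at these times without the term and 2, 2 and 3 with the block. Of all 14428 genes 531, 299 and 387 were so without the term and 1187, 623 and 802 with the block.

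Fat cell markers moved with these genes. The 10 adipocyte markers measured summed to between 31175 and 43931 in the LA arrays at 24 h and to between 17587 and 28804 in the CLA arrays. Of the 10, 7 fell, beside 3.72% of all genes, with a median of -1.08 on the log2 scale. At 12 h the sums were 31594 to 42599 under LA and 21516 to 31101 under CLA, and 5 fell, beside 2.4% of all genes. Without the array-set term 0 adipocyte markers passed at 12 or 24 h in limma's fit. Lower at an unadjusted p under 0.05 were 3 and 5, against 2.07% and 2.68% of all genes. With the replicate block 0 passed at 12 h and 1, Retn, at 24 h (background 0.18%). At each time 7 were lower at an unadjusted p under 0.05, against 4.32% and 5.56% of all genes. The 10 preadipocyte and fibroblast markers summed to 22276 to 31215 under LA and 25527 to 33818 under CLA at 24 h, with 0 past the threshold in limma's fit. At an unadjusted p under 0.05, 3 were higher, beside 1026 of all 14428 genes. The 6 macrophage markers summed to 128 to 173 under LA and 218 to 302 under CLA at 24 h, and Cd68, Lyz2 and Itgam were at 0 in 3, 2 and 9 arrays. The sum hides that of the 5 tested at 24 h 2 lay lower, and 0 passed. Cd14 was higher at 8 h (2.41 ± 0.43, limma adjusted p = 0.0114) and 12 h (1.42 ± 0.35, adjusted p = 0.0340). It passed at neither time without the array-set term or with the replicate block. Pecam1, which defines endothelium, was at 0 in all 25 arrays. The part of these shifts in the peroxisomal differences was not tested.

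The authors also deposited tables of ratios in which the arrays of a group were combined. The direction of these ratios was set by their correlation with the differences given here, so that a shared direction is largely built in and is no support. In the authors' deposited table the ratio of CLA to LA was below 1 for 22, 28, 28 and 27 of the 29 members at 4, 8, 12 and 24 h. The authors' deposited p was under 0.05 for 2 of the 6 genes that fell at 12 h (Pex3 and Gnpat) and for 4 of the 9 at 24 h (Pex3, Pex16, Scp2 and Gnpat). These tables rest on the same arrays.

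Of the members 17 had more than 1 probe set, and the one with the highest mean log2 value was used. The other bright probe sets of the genes that fell gave -0.89 for Pex3, -0.68 for Pex11a and -0.86 for Pex19 on the log2 scale at 24 h. A dim probe set of Pex16 gave -1.37 at 24 h and 0.43 at 12 h, where the bright one gave -0.53. When limma was run over every probe set with 1 symbol and without the filter, an alternative chosen after seeing the data, the same probe sets of 4 members passed at 12 h (Pex3, Scp2, Hacl1 and Gnpat) and of 5 at 24 h (Pex11a, Pex16, Scp2, Phyh and Gnpat). At 24 h the adjusted p was then 0.0749 for Pex3, 0.0599 for Pex19 and Hacl1, and 0.0555 for Ehhadh.

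The promoter windows were searched on both strands for 7 motifs, and 24 of the members had a window among 32851 in the table. The full PPAR response element, a pair of half-sites in tandem, was in 0.04% of all windows and in 0 members. Only this exact form within the window was searched. A match this rare is not expected in the 28 windows of the members, so the 0 does not set them apart. The AGGTCA half-site, which the full element contains, was in 16.3% of all windows and in 3 members (Cat, Phyh and Scp2). The ETS core CCGGAAG was in 8.86% of windows and in 6 members (Acot8, Crot, Gnpat, Pex11a, Pex26 and Pex6). The antioxidant element core TGACNNNGC was in 12.4% and 3 members, the E box CACGTG in 7.15% and 1 member (Gnpat), the CCAAT box in 37.4% and 11 members, and the GC box GGGCGG in 35.7% and 20 members. These matches describe letters within the window and were set against no binding data.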

How the data were processed

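Per the labels, RNA was extracted with Trizol and biotin-labelled cRNA was hybridised. The deposited table holds 1 linear intensity per probe set and array for 45101 probe sets. The scaling by the authors was not given in the sources used here, but 21.6% of these deposited intensities lie at or below 0 and array means differ, so a background had been subtracted. The authors also deposited, per time, a ratio, its log10 and a p-value for each probe set, and scaled intensities, with the arrays of a group combined. No header gives the ratio's direction. It was read as CLA over LA because its log10 correlated with the CLA minus LA difference of the arrays (r = 0.611 to 0.673 across probe sets). The second scaled intensity of each of the 4 tables (4 columns) was not used.

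Intensities were floored at 0, offset by 0.984 (the 25th percentile), put on the log2 scale and quantile normalised. Genes took their probe set with 1 symbol and the highest mean log2 value (34958 probe sets, 18194 genes) and were kept above the array median in at least 2 arrays (14428 genes). limma 3.58.1 in R 4.3.3 was run on 25 arrays with 8 group means and a term for 5 array sets (Ward clustering). The fit was also run on simulated data, which took the array sets as given and the noise as independent. The simulation therefore cannot show whether sets drawn from the tested values make the errors too small. The members, gene lists and the array-set term were chosen with earlier results of these data known. Every member was named; of other peroxisomal genes, the 6 with the smallest p at 24 h. Gene symbols of all 29 members were unchanged in RefSeq.

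Same-numbered LA and CLA arrays deviated from their group means together at 12 h (r = 0.16 to 0.56) and at 24 h (r = 0.265 to 0.339), where every pair lay above 0.1, the rule for treating numbers as pairs. At 4 h (r = -0.245 and 0.328) and 8 h (r = 0.0673, 0.172 and 0.312) 1 pair lay below it, so those numbers were not treated as pairs. The replicate block shared by all times still groups arrays by these numbers. The pairing at 12 and 24 h is read from these correlations, not from the labels. Alternatives covered the offset, normalisation, filter, probe set choice, blocks and left-out arrays. For arrays, their number limits the precision.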

Additional observations from a re-analysis of the deposited data

Results flagged for a closer look

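In groups of 4 arrays, 3 of 58 combinations of member and group had 1 array far from the others, where chance gives about 1 in 20. In the CLA arrays at 12 h, Pex7 read 148, 137, 154 and 293, and the gap to the highest array was 0.845 of the whole range on the log2 scale. Phyh read 63.3, 53.6, 57.4 and 151 in the same arrays, with a gap of 0.841 of the range to the same array, replicate 4. Pex10 read 38.3, 38.6, 23.2 and 38.0, with a gap of 0.972 of the range to replicate 3, the lowest.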

How the results depend on the processing

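The counts of members at 12 and 24 h rested on the array-set term. At 12 h (6 members) the count was 0 without that term, 0 with the replicate block, 0 with the block within each time (chosen after seeing the data), 0 for values as deposited, 0 with only the arrays of 12 h, 2 with each array centred on its median (Scp2 and Gnpat) and 1 without the dimmest array set (Gnpat). At 24 h (9 members) it was 0 without the term, 0 with the replicate block, 0 with the block within each time, 0 with only the arrays of 24 h, 2 for values as deposited, 5 with arrays centred, 5 without the dimmest set and 5 with every probe set tested and no filter (chosen after seeing the data). Leaving out 1 array gave 1 to 7 members at 12 h and 2 to 7 at 24 h. At 12 h it was 1 without LA replicate 2 or CLA replicate 2, and 2 without LA replicate 3, LA replicate 4 or CLA replicate 3. At 24 h it was 2 without LA replicate 2 or CLA replicate 2, and 3 without LA replicate 1 or CLA replicate 3. Scp2 and Gnpat at 24 h passed in each of these. With the larger offset 2 members passed at 8 h (Scp2 and Gnpat) and 1 differed between times (Gnpat). No difference of a gene that passed changed sign under any alternative run. At 12 and 24 h the differences do not depend on the array-set term or the replicate block, so the sign could not change in those fits. In the authors' ratios a shared direction is largely built in. Over all genes the count at 12 h was 677 with the array-set term, 4 without it and 30 with the replicate block, and at 24 h it was 664, 0 and 26. At 8 h it was 261, 4 and 29, and at 4 h 3, 1 and 1. At 4 and 8 h the block left the count of members at 0. The causes were not tested, except that left-out arrays and single times leave fewer samples.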
